A study of Homo sapiens with 15 samples.

Results

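The 9 genes examined here encode proteins that hold RAS back: NF1, RASA1, RASA2, RASA3, RASAL2, DAB2IP, SPRED1, SPRED2 and LZTR1. They were chosen by name for their known function, not by a measured value, though earlier results of these data were known. The 9 genes were matched by symbol to Ensembl identifiers. They are 9 of the 60721 genes in the count table, and 9 of 9 passed the filter on low counts that left 17457 genes to test. The question was whether any of the 8 other brakes was higher where NF1 was low.

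RNA was read by poly(A) sequencing in MCF-10A, an immortalised human breast epithelial line that does not form tumours and that the labels call MCF10. The 15 libraries fall into 5 genotypes of 3 biological replicates: Parental, EV (cells given an empty vector), and 3 NF1 mutants named NF1-g1 (guide RNA 1), NF1-g2 (guide RNA 2) and NF1-g1/g2 (both guides). No cells were treated, and all groups shared a medium with horse serum, EGF, hydrocortisone, cholera toxin and insulin. EGF is a growth factor that activates RAS. The labels do not say whether a mutant line is a single clone, how the guides were delivered, or whether replicates came from separate cultures, so p-values measure the spread between these libraries only. Levels are CPM, the reads of a gene scaled to the total reads of its library, and they speak of RNA, not of protein or of RAS activity. In such bulk samples, fewer cells of a type and less RNA per cell cannot be told apart.

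RAS proteins are switches that signal when bound to GTP and stop when they hydrolyse it. GTPase-activating proteins (GAPs) such as neurofibromin, the product of NF1, speed up that hydrolysis, and loss of NF1 is known to raise RAS-GTP in many cell types. SPRED1 and SPRED2 bring neurofibromin to the plasma membrane, and LZTR1 is an adaptor of the CUL3 ubiquitin ligase that marks RAS family proteins for removal.

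Library totals ranged from 46129559 to 78976917 counts, and each of the 9 genes had at least 451 counts in every library, so counting noise was small for all of them. Guide 2 replicate 2 stood apart: on the first principal component (46.4% of the variance) it scored -91.89, against 45.96 and 47.8 for the other guide 2 libraries. The summed level of 10 mammary epithelial markers was 8189.7 CPM in it and 791.4 and 869.7 CPM in the other guide 2 libraries. Its mesenchymal sum of 3912.0 CPM was the lowest of 15, and FN1 made up 2818.4 CPM of that sum. VIM, CDH2, FN1, ZEB1, ZEB2, TWIST1 and PDGFRB were each lowest of 15 in it. Of the same list, SNAI2 was highest of 15 in it (160.5 CPM), and COL1A1 and COL1A2 were neither. Between 5 and 8 of the 10 epithelial markers reached 1 CPM in a library, and GRHL2 was at or near 0 in all 15. Of 5 leukocyte markers, CD14 and CSF1R reached 1 CPM in every library (summed level 5.88 to 16.0 CPM), and CD3E was at 0 in all 15. The Schwann cell marker SOX10 was also at 0 in all 15. Comparisons with a control, and those between mutant lines, are also given without guide 2 replicate 2.

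NF1 RNA was lower in all 3 mutant lines than in both control groups. NF1 (ENSG00000196712; chr17:31094927-31382116, plus strand, GRCh38) had 158.7, 140.6 and 153.1 CPM in the parental libraries and 115.3, 122.9 and 133.0 CPM in the EV libraries. It had 43.6, 47.3 and 51.3 CPM in guide 1 cells, 27.0, 31.4 and 29.8 CPM in guide 2 cells, and 28.9, 29.4 and 26.0 CPM in cells with both guides. The 9 mutant libraries lay below the 6 unedited ones with no overlap, and guide 1 cells sat above the other mutant lines, which overlapped each other. Such a separation of all mutant from all unedited libraries, in either direction, was seen in 0.281% of tested genes, 32 lower and 17 higher, and NF1 was the only one of the 9 brakes among them. With guide 2 replicate 2 left out it was 1.64% of tested genes, 152 lower and 135 higher, and NF1 was again the only brake among them.

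Pooled over the mutant lines, NF1 was 0.25 times the control level (log2 fold change -2.01, 95% interval -2.13 to -1.89, edgeR adjusted p = 4.11e-10), and it ranked 1 of 17457 genes by p. Against EV, the mutant lines had log2 fold changes of -1.40 (guide 1), -2.09 (guide 2) and -2.16 (both guides). Guide 1 cells held more NF1 RNA than guide 2 cells by 0.69 on the log2 scale (95% interval 0.50 to 0.88, edgeR adjusted p = 0.0121). That adjusted p rose to 0.101, 0.0764 and 0.0599 without guide 1 replicate 2, guide 2 replicate 1 and guide 2 replicate 3, where the difference was 0.69, 0.64 and 0.70. Cells with both guides held less than guide 1 cells (-0.76, adjusted p = 0.0041), and did not pass the threshold against guide 2 cells (-0.07, 95% interval -0.26 to 0.12). Parental cells were 0.25 above EV on the log2 scale, which did not pass the threshold (adjusted p = 0.121). The NF1 values without guide 2 replicate 2 were -1.41, -2.15 and -2.17 against EV, -1.65, -2.39 and -2.41 against parental cells, and -2.03 pooled. In that fit guide 1 was above guide 2 by 0.75 (adjusted p = 0.00308), and cells with both guides differed from guide 1 by -0.77 (adjusted p = 0.000323) and from guide 2 by -0.02. NF1 has many pseudogenes; the 12 in the table held 1 count in all 15 libraries together.

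**Figure D1:**
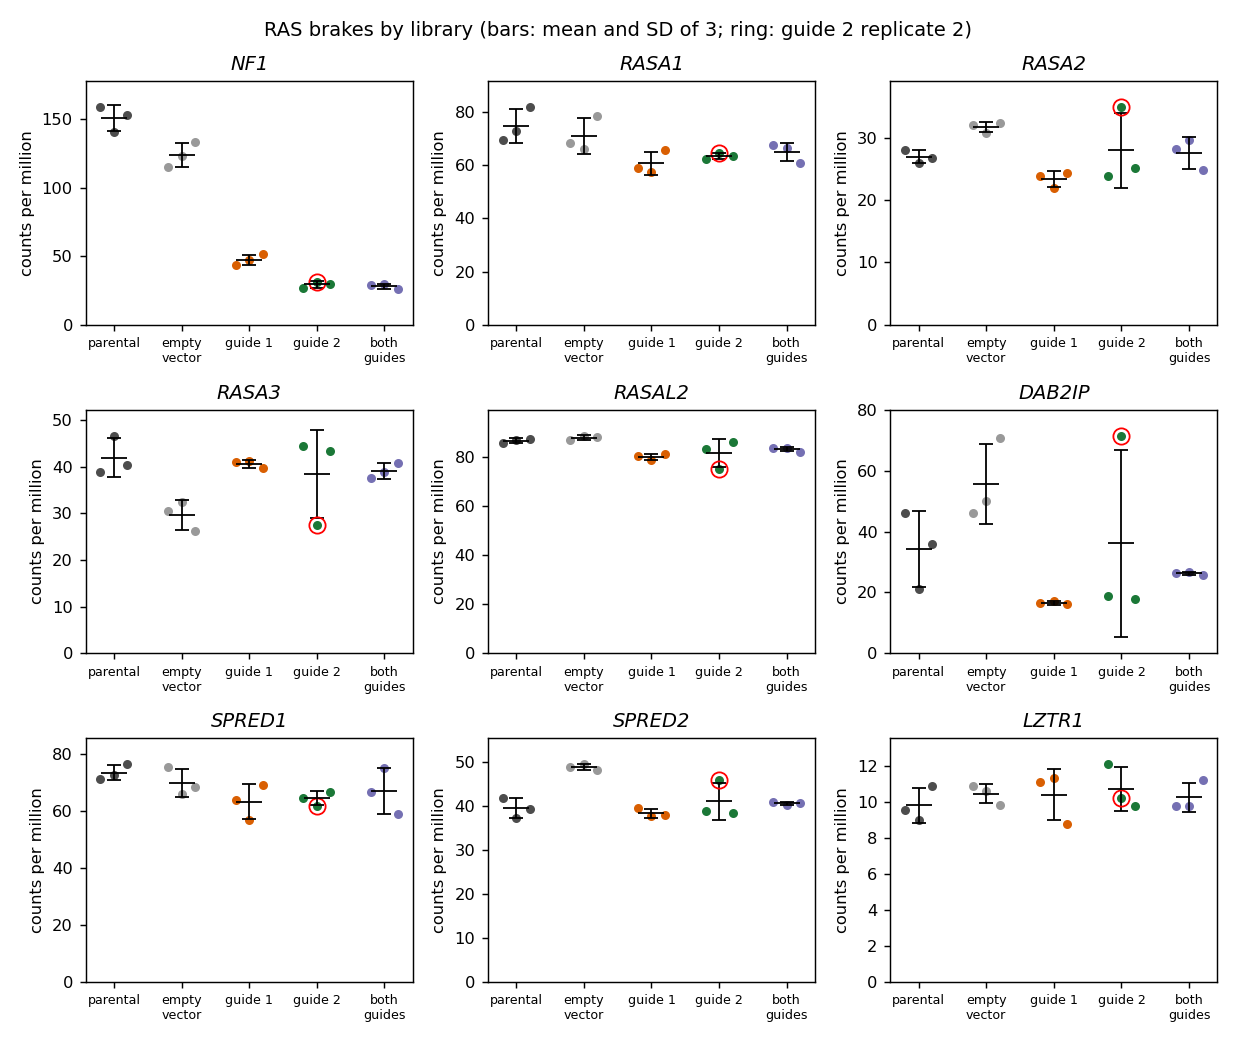
CPM (y axis, from 0) of the 9 RAS brakes in the 5 genotypes (x axis); points are libraries, bars the mean and SD of 3, and the ring marks guide 2 replicate 2. NF1 lies between 26.0 and 51.3 CPM in the 9 mutant libraries and between 115.3 and 158.7 CPM in the 6 unedited ones, while each other brake overlaps between them.

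No other brake was called higher in a mutant line in the edgeR fit of all 15 libraries. RASA3 was called higher against EV with limma voom, as given below. Against EV, 3 of the 8 were called in guide 1 cells, all lower: DAB2IP, RASA2 and SPRED2, in a comparison where 5.88% of all tested genes were called and 4.57% were called lower. In guide 2 cells (3.94% of genes called) and in cells with both guides (0.962%), edgeR called 0 of 8, with 2 and 3 at an unadjusted p under 0.05; DESeq2 called 1 in each. Against parental cells the count was 0 of 8 in guide 1 (0.149% of genes called), guide 2 (0.0516%) and both guides (0.195%), with 2, 1 and 1 at an unadjusted p under 0.05 and none by DESeq2. With the 3 mutant lines set against both control groups, 1.51% of genes were called and 0 of the 8, though 5 had an unadjusted p under 0.05 and DESeq2 called 1. The median log2 fold change of the 8 in that comparison was -0.14, beside 0.01 over all tested genes. Percentages of genes called, here and below, are of edgeR calls. The shares called by DESeq2 are not given here, so its counts have no matching background.

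Without guide 2 replicate 2, more genes were called in each comparison with a control. The count of the 8 was then 5 in guide 1 against EV (18.1% of genes called), 4 in guide 2 against EV (14.5%) and 3 in both guides against EV (6.7%). Against parental cells it was 2 in guide 1 (14.5%), 0 in guide 2 (5.96%) and 0 in both guides (2.62%). With guide 1 replicate 3 left out in its place, 1 of the 8 was called in guide 1 against parental cells. The share of all genes called in that fit is not given here. Over removed libraries, from 6 to 2591 of all tested genes were called in guide 1 against parental cells. The 2591 came without guide 2 replicate 2. Without guide 2 replicate 2, 5 of the 8 were called in the mutant lines against both controls (18% of genes called, 11.4% lower). RASA1, RASA2, DAB2IP and SPRED2 were lower, and RASA3 was higher.

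**Figure D2:**
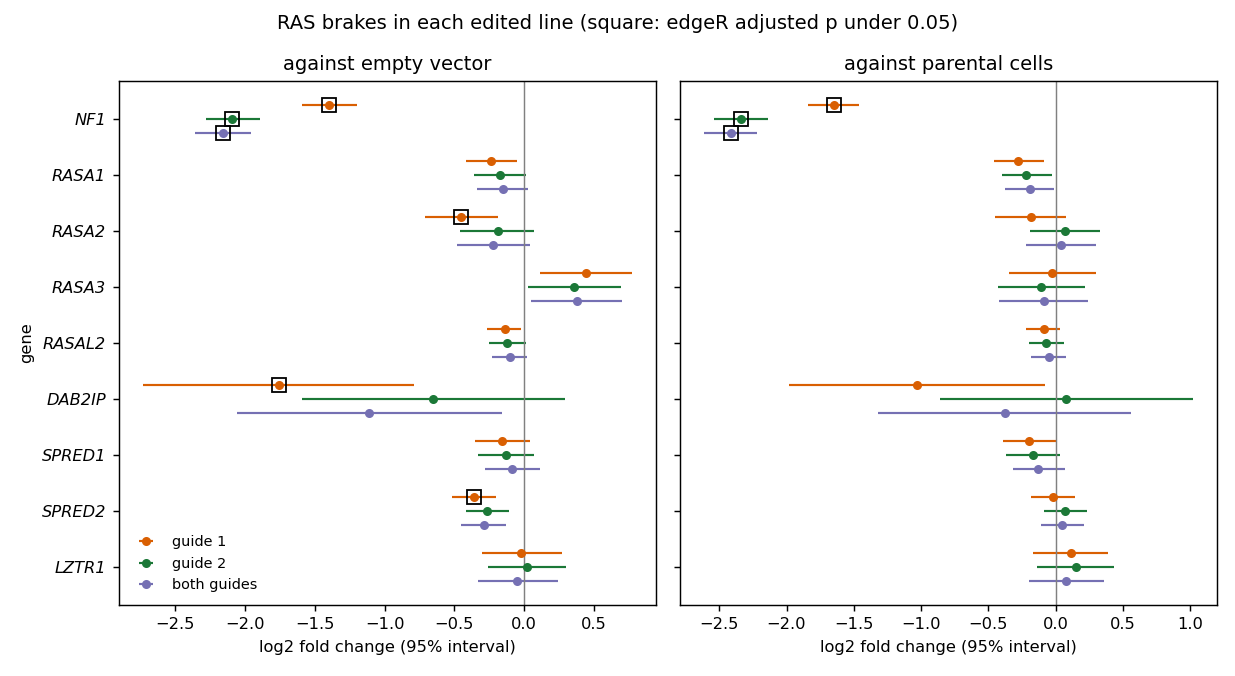
Log2 fold change (x axis) of the 9 brakes (y axis) in each mutant line against EV (left) and against parental cells (right), with 95% intervals; squares mark an edgeR adjusted p under 0.05. NF1 is called in all 6 comparisons, and DAB2IP, RASA2 and SPRED2 are called lower in guide 1 cells against EV.

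RASA1 (ENSG00000145715; chr5:87267888-87391931) encodes p120 RasGAP, which docks on activated growth factor receptors. Its level was 69.6, 72.9 and 81.8 CPM in parental cells and 68.3, 65.9 and 78.6 CPM in EV cells. It was 59.1, 57.4 and 65.6 CPM with guide 1, 62.3, 64.7 and 63.6 CPM with guide 2, and 67.4, 66.4 and 60.9 CPM with both. The mutant libraries sat at or under the low end of the controls and overlapped them only between 65.9 and 67.4 CPM. The pooled log2 fold change was -0.21 (95% interval -0.33 to -0.09, edgeR adjusted p = 0.0828), and without guide 2 replicate 2 it was -0.22 with an adjusted p of 0.0137. RASA1 shares 771 exonic bases with CCNH on the opposite strand (34.2 CPM on average), and whether the counting used strand is not given in the sources used here.

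RASA2 and RASA3 encode GAPs of the GAP1 family, which bind membrane lipids; RASA3 also acts on RAP1. RASA2 (ENSG00000155903; chr3:141487047-141615342) had 28.1, 26.0 and 26.8 CPM in parental and 32.0, 30.8 and 32.4 CPM in EV cells. It had 23.8, 22.0 and 24.4 CPM with guide 1, 23.9, 34.9 and 25.2 CPM with guide 2, and 28.2, 29.7 and 24.8 CPM with both. Guide 1 libraries lay below every unedited library, and guide 2 replicate 2 was the highest of all 15. The fall in guide 1 cells against EV was -0.45 on the log2 scale (95% interval -0.71 to -0.19, edgeR adjusted p = 0.0465). The call ended without any one of the parental, EV, guide 1 or both-guide libraries (adjusted p 0.0512 to 0.171), while the log2 fold change stayed between -0.49 and -0.41. Leaving out guide 2 replicate 2 gave -0.46 and an adjusted p of 0.00115.

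RASA3 (ENSG00000185989; chr13:113977783-114132611, minus strand) differed with the control used. It had 38.8, 46.7 and 40.5 CPM in parental cells and 30.5, 32.4 and 26.2 CPM in EV cells. It had 41.0, 41.2 and 39.7 CPM with guide 1, 44.5, 27.5 and 43.3 CPM with guide 2, and 37.5, 38.9 and 40.9 CPM with both. All mutant libraries but guide 2 replicate 2 lay above the EV range and within or just under the parental range. Against EV the log2 fold changes were 0.44, 0.36 and 0.38 in guide 1, guide 2 and both guides (edgeR adjusted p = 0.109, 0.215 and 0.278). Against parental cells they were -0.03, -0.11 and -0.09, with 95% intervals of -0.35 to 0.30, -0.43 to 0.22 and -0.42 to 0.24.

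Without guide 2 replicate 2, RASA3 passed the threshold against EV in all 3 lines (0.43, 0.53 and 0.36; edgeR adjusted p = 0.00389, 0.00267 and 0.0257). In the same fit parental cells were also above EV, by 0.45 (adjusted p = 0.00455). Across the fit of all libraries and its up to 21 alternatives, RASA3 was the only one of the 8 called higher in a mutant line against a control. Those calls came in 3 settings: without guide 2 replicate 2, voom with all 15 libraries, and a fit of the compared groups alone. With voom, RASA3 was above EV by 0.40, 0.50 and 0.30 in guide 1, guide 2 and both guides. The limma voom adjusted p was 9.71e-05, 3.85e-05 and 0.00163. With the compared groups alone it passed against EV in guide 1 and both guides, not in guide 2. All these calls were against EV or the mean of both controls, and none against parental cells.

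RASAL2 and DAB2IP encode GAPs of the same subfamily. RASAL2 (ENSG00000075391; chr1:178094141-178484147) varied least, with its highest library 1.18 times its lowest. It had 85.4, 86.8 and 87.3 CPM in parental and 86.8, 88.5 and 87.9 CPM in EV cells. It had 80.3, 78.5 and 81.0 CPM with guide 1, 83.2, 75.0 and 86.1 CPM with guide 2, and 83.6, 83.3 and 82.0 CPM with both. Only guide 2 replicate 3 reached the control range, and the pooled difference was small, -0.10 on the log2 scale (95% interval -0.18 to -0.02, edgeR adjusted p = 0.229).

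DAB2IP (ENSG00000136848; chr9:121567057-121785530), a GAP that is also a scaffold for other signalling proteins, varied most among the 8, with its highest library 4.44 times its lowest. Its RefSeq annotation (GRCh38.p14) has 3 start sites with a promoter entry, and the 250 bases before each are printed because this was the brake with the widest range. All 3 are on the plus strand of chromosome 9, at chr9:121566824-121567073, chr9:121651384-121651633 and chr9:121742535-121742784 in that order, with matches to 3 searched motifs in capitals.
DAB2IP start 1: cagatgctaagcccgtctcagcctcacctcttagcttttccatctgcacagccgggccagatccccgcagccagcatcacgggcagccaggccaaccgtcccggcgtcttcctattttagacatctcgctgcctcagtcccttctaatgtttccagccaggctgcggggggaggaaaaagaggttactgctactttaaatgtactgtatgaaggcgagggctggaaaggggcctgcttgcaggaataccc
DAB2IP start 2: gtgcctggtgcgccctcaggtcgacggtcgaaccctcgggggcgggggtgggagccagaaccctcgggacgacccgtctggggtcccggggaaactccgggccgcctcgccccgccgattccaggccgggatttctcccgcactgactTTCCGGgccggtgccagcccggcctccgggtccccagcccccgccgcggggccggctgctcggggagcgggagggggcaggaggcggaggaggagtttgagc
DAB2IP start 3: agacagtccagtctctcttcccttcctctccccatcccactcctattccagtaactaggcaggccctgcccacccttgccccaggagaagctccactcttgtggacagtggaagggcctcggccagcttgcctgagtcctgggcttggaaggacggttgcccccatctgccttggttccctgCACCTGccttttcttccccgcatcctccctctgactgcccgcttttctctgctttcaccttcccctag
The motifs, searched on both strands, were the E-box CACCTG (bound by ZEB and SNAI factors), the AP-1 motif TGANTCA and the ETS motif CCGGAA. Start 1 holds none, start 2 holds 1 ETS match in a window of 76.0% GC with 28 CpG, and start 3 holds 1 E-box in a window of 60.0% GC with 4 CpG. Of 35116 windows of this length, 17.5% hold the E-box, 6.6% the AP-1 motif and 14.5% the ETS motif, so single matches are common. The deposited gene-level counts do not separate reads by start site. Of the 9 brakes, 8 had a promoter entry, with 13 windows, and no other window of theirs held one of these motifs.

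DAB2IP had 46.0, 21.1 and 36.1 CPM in parental cells and 46.2, 50.0 and 70.9 CPM in EV cells. It had 16.4, 17.2 and 16.1 CPM with guide 1, 18.9, 71.6 and 18.0 CPM with guide 2, and 26.5, 26.7 and 25.6 CPM with both. Guide 2 replicate 2 was the highest of 15 and close to EV replicate 3, while the other guide 2 libraries lay just above the guide 1 range. The log2 fold change against EV was -1.76 in guide 1 cells (95% interval -2.73 to -0.79, edgeR adjusted p = 0.0379), -0.65 in guide 2 cells (adjusted p = 0.461) and -1.11 with both guides (adjusted p = 0.266). The guide 1 call ended (adjusted p 0.0548 to 0.158) without parental replicate 3 and without any one of the EV, guide 1 or both-guide libraries.

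Without guide 2 replicate 2 the DAB2IP values against EV were -1.77, -1.63 and -1.12 (edgeR adjusted p = 0.000253, 0.00145 and 0.0109), and only guide 1 passed against parental cells (-1.03, adjusted p = 0.013). The guide 2 value against parental cells went from 0.08 to -0.88 without that library, past the threshold in neither fit. Pooled over the mutant lines the value moved from -0.81 (adjusted p = 0.169) to -1.14 (adjusted p = 0.000295) when that library was left out. Parental cells were also below EV in that fit, by 0.74 on the log2 scale (edgeR log2 fold change -0.74, adjusted p = 0.038).

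The epithelial marker sum is given beside DAB2IP. It was 4407.8, 1010.6 and 2262.4 CPM in parental replicates 1 to 3, where DAB2IP had the same order. It was 2874.8, 3080.1 and 4326.1 CPM in EV cells, again in DAB2IP's order, and 930.1, 1061.4 and 672.2 CPM with guide 1. It was 1417.6, 1281.7 and 1209.3 CPM with both guides, where the orders differed, as they did between guide 2 replicates 1 and 3. KRT5, a basal keratin, made up most of that sum, with 4996.7 CPM in guide 2 replicate 2 and 708.8 and 792.6 CPM in the other guide 2 libraries. The mesenchymal marker sum, mostly FN1, ran from 3912.0 CPM in guide 2 replicate 2 to 20826.9 CPM in guide 1 replicate 2. The proliferation sum ran from 1808.7 to 3537.9 CPM. The part of these marker sums in the DAB2IP, RASA2 and RASA3 values was not tested.

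**Figure D3:**
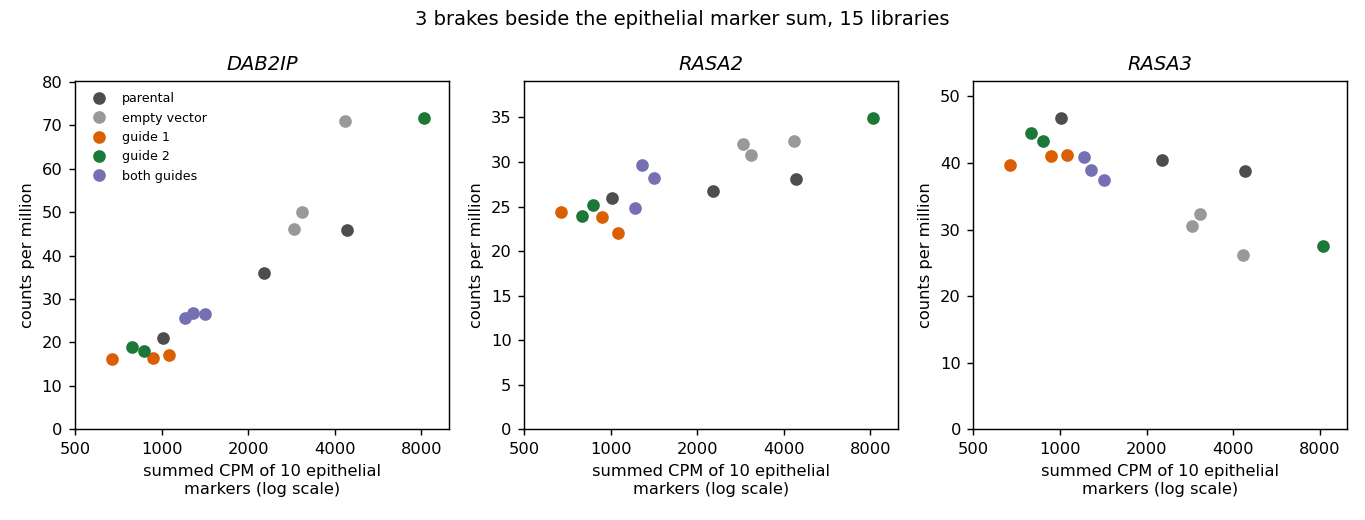
CPM of DAB2IP, RASA2 and RASA3 (y axes, from 0) against the summed CPM of 10 epithelial markers (x axis, log scale) in 15 libraries coloured by genotype. Guide 2 replicate 2, at 8189.7 CPM of markers, has the highest DAB2IP (71.6 CPM) and RASA2 (34.9 CPM) of the 15 and a RASA3 level (27.5 CPM) near that of EV cells.

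SPRED1 and SPRED2 encode the membrane partners of neurofibromin. SPRED1 (ENSG00000166068; chr15:38252326-38357249) had 71.4, 72.7 and 76.6 CPM in parental and 75.5, 65.9 and 68.7 CPM in EV cells. It had 63.9, 56.9 and 69.3 CPM with guide 1, 64.7, 62.0 and 66.9 CPM with guide 2, and 66.9, 75.1 and 59.0 CPM with both. The mutant libraries overlapped the controls, and the pooled log2 fold change of -0.14 did not pass the threshold (95% interval -0.27 to -0.02, edgeR adjusted p = 0.249).

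SPRED2 (ENSG00000198369; chr2:65310851-65432637, minus strand) was highest in EV cells. It had 48.9, 49.6 and 48.3 CPM in EV cells and 41.9, 37.4 and 39.4 CPM in parental cells. It had 39.6, 37.8 and 37.9 CPM with guide 1, 38.9, 46.0 and 38.5 CPM with guide 2, and 40.9, 40.3 and 40.7 CPM with both. Only guide 2 replicate 2, at 46.0 CPM, came near the EV libraries, and parental and mutant cells overlapped. Guide 1 cells were below EV by -0.36 on the log2 scale (95% interval -0.52 to -0.20, edgeR adjusted p = 0.0159), and the adjusted p was 0.0555 without EV replicate 3 and 0.0699 without guide 1 replicate 2. Against EV the guide 2 and both-guide values were -0.27 and -0.29. Like those of RASA3, the SPRED2 values differed with the control used: against parental cells they were -0.02, 0.07 and 0.05 in guide 1, guide 2 and both guides.

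Parental against EV was the only comparison of unedited cells, and 4.37% of tested genes were called in it, 2.84% lower in parental cells. SPRED2 was the 1 brake of the 9 called there, at -0.34 (edgeR adjusted p = 0.0238), about the size of its difference between guide 1 and EV. That call ended without parental replicate 2 or 3 or any one EV library (adjusted p 0.0643 to 0.101). Without guide 2 replicate 2, where 13.9% of genes were called, RASA2, RASA3, DAB2IP and SPRED2 all differed between parental and EV cells. These comparisons share the EV libraries with those of the mutant lines.

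LZTR1 (ENSG00000099949; chr22:20982013-20999038) was the least abundant. It had 9.52, 8.98 and 10.9 CPM in parental and 10.9, 10.6 and 9.85 CPM in EV cells. It had 11.1, 11.3 and 8.75 CPM with guide 1, 12.1, 10.2 and 9.79 CPM with guide 2, and 9.78, 9.79 and 11.2 CPM with both. All groups overlapped, and the pooled log2 fold change was 0.05 (95% interval -0.13 to 0.23, edgeR adjusted p = 0.833).

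**Figure D4:**
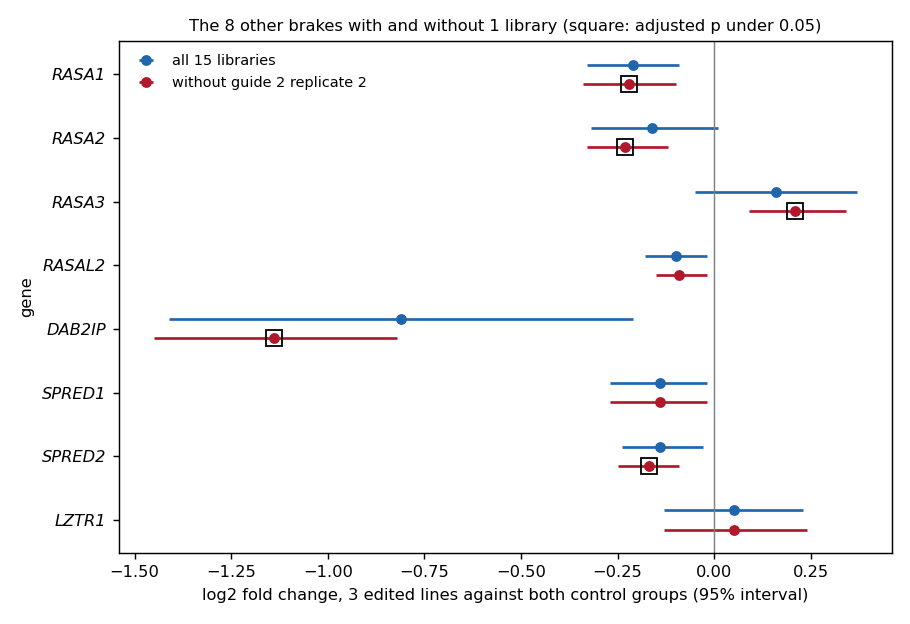
Log2 fold change (x axis) of the 8 other brakes (y axis) in the 3 mutant lines against both control groups, with 95% intervals, from all 15 libraries and without guide 2 replicate 2; squares mark an edgeR adjusted p under 0.05. With edgeR, no brake is called with all libraries, and 5 are called without that library, of which RASA3 (0.21) is the only one above 0.

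In the pooled comparison of all libraries, the 95% interval lay wholly below 0 for RASA1, RASAL2, DAB2IP, SPRED1 and SPRED2. For RASA2 it reached 0.01, for LZTR1 0.23 and for RASA3 0.37 on the log2 scale. Against a single control group the intervals were wider: that of RASA3 against EV reached 0.77, 0.69 and 0.70 in guide 1, guide 2 and both guides, and that of DAB2IP in guide 2 against parental cells reached 1.02. NF1 fell by 2.01 on the same scale in the pooled comparison. Between mutant lines, which differ in NF1 level, 0 of the 8 other brakes passed the edgeR threshold in guide 1 against guide 2 (0.0401% of genes called), both guides against guide 1 (0.275%) or both guides against guide 2 (0.149%). At an unadjusted p under 0.05 those counts were 1, 0 and 0, and DESeq2 called none. In the same 3 comparisons without guide 2 replicate 2, 0 of the 8 passed, where 0.162%, 4.55% and 1.83% of genes were called.

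The summed CPM of the 8 other brakes was 390.7, 372.5 and 399.4 in parental cells and 399.1, 393.7 and 422.7 in EV cells. It was 335.2, 322.3 and 342.7 with guide 1, 348.4, 391.9 and 351.3 with guide 2, and 360.8, 370.1 and 345.2 with both guides. Every mutant library but guide 2 replicate 2 was below every unedited library in this sum. It is a description, with no test, and it mixes genes of different length.

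Levels of different genes can be set side by side only per length, here CPM per kilobase of the transcript with the longest coding sequence. On that scale RASA1 and RASAL2 were highest and LZTR1 had the lowest mean in all 5 groups. RASA1 had 18.9 and RASAL2 20.04 CPM per kilobase in EV cells, which do not differ beyond their spread, and LZTR1 had 2.28. NF1 went from 12.14 CPM per kilobase in parental and 9.96 in EV cells to 3.81, 2.37 and 2.26 in guide 1, guide 2 and both-guide cells. Its share of the 9 genes' per-kilobase sum went from between 9.5% and 12.9% in unedited libraries to between 2.6% and 5.1% in mutant ones. The order depends on the length used: with all annotated exons of a gene joined, RASA1 was still first in every group, but RASAL2 came 5 or 6 of 9. In guide 2 and both-guide cells NF1 and LZTR1 did not differ beyond their spread (LZTR1 2.34 and 2.24), and with joined exons NF1 had the lowest mean there (1.08 and 1.04).

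The genes around RAS were read from a list of 47, of which 37 were tested. Of 6 further GAPs and SPRED genes, RASAL1, RASAL3, RASA4 and RASA4B were too low to test. SPRED3 was not called in any mutant line by edgeR or DESeq2 with all libraries. SPRED3 had 3.33 ± 0.616 CPM in parental, 4.03 ± 0.647 in EV and 6.19 ± 1.52 in guide 1 cells, 3.71 ± 2.59 with guide 2 and 3.72 ± 0.589 with both (SD, n = 3 each). With guide 2 replicate 2 left out it was called higher in guide 1 against parental cells (0.92, edgeR adjusted p = 0.0169) and not against EV (0.60, adjusted p = 0.0661). In guide 1 against EV (5.88% of all genes called), 1 of 37 rose (IRS1) and 1 fell (RAPGEF1, an exchange factor, -0.38, edgeR adjusted p = 0.0295). In guide 2 against EV (3.94%), 1 rose (IRS1) and 1 fell (GAB1, a docking protein, -0.53, adjusted p = 0.0368). The RAPGEF1 call ended without EV replicate 3 or guide 1 replicate 1 or 2 (adjusted p 0.11 to 0.136), and the GAB1 call without any 1 of 9 libraries (0.0502 to 0.167). The other comparisons with a control, the pooled one (1.51%) included, called 0 of 37, with 7 at an unadjusted p under 0.05 in the pooled one and 4 called by DESeq2. Of this list only IRS1 meets the rule for named genes, and the others given with values here were chosen after their values were seen.

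IRS1, the docking protein below the insulin and IGF1 receptors, had 36.4 to 55.3 CPM in EV cells and 71.0 to 96.6 CPM in parental cells. It had 80.0 to 105.2 CPM with guide 1, 60.2 to 104.3 CPM with guide 2 and 73.1 to 78.1 CPM with both. EV was the low group and no EV library reached any other, so parental and mutant cells overlapped. Its log2 fold change against EV was 0.96 in guide 1 and 0.84 in guide 2 cells (edgeR adjusted p = 0.0203 and 0.0421), and against parental cells 0.26 and 0.15 (adjusted p = 0.454 and 0.958). The guide 1 call ended without EV replicate 3 (0.79, adjusted p = 0.107), guide 1 replicate 1 (0.0873) or guide 1 replicate 2 (0.0854). The guide 2 call ended without any 1 of 12 libraries, with an adjusted p of 0.0523 to 0.187, and held without parental replicate 2, guide 1 replicate 3 and guide 2 replicate 2.

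NRAS, 1 of the RAS genes themselves, had mean levels of 151.6 and 138.6 CPM in parental and EV cells and of 105.5, 130.3 and 125.2 CPM in the 3 mutant lines. It was not called by edgeR or DESeq2 with all libraries. Without guide 2 replicate 2, the pooled comparison called 15 of 37 genes of the list, 4 higher and 11 lower. Those higher were the adaptors SHC1, GAB2, IRS1 and IRS2 (log2 fold changes 0.28, 0.55, 0.52 and 0.50). Of the same role, GAB1 (-0.33), FRS2 (-0.20) and the phosphatase PTPN11 (-0.22) were called lower. Those lower also included the exchange factor SOS2 (-0.28) and the GTPases HRAS (-0.39) and NRAS (-0.34). In that fit 18% of all tested genes were called, and the list was not tested against other genes.

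**Figure D5:**
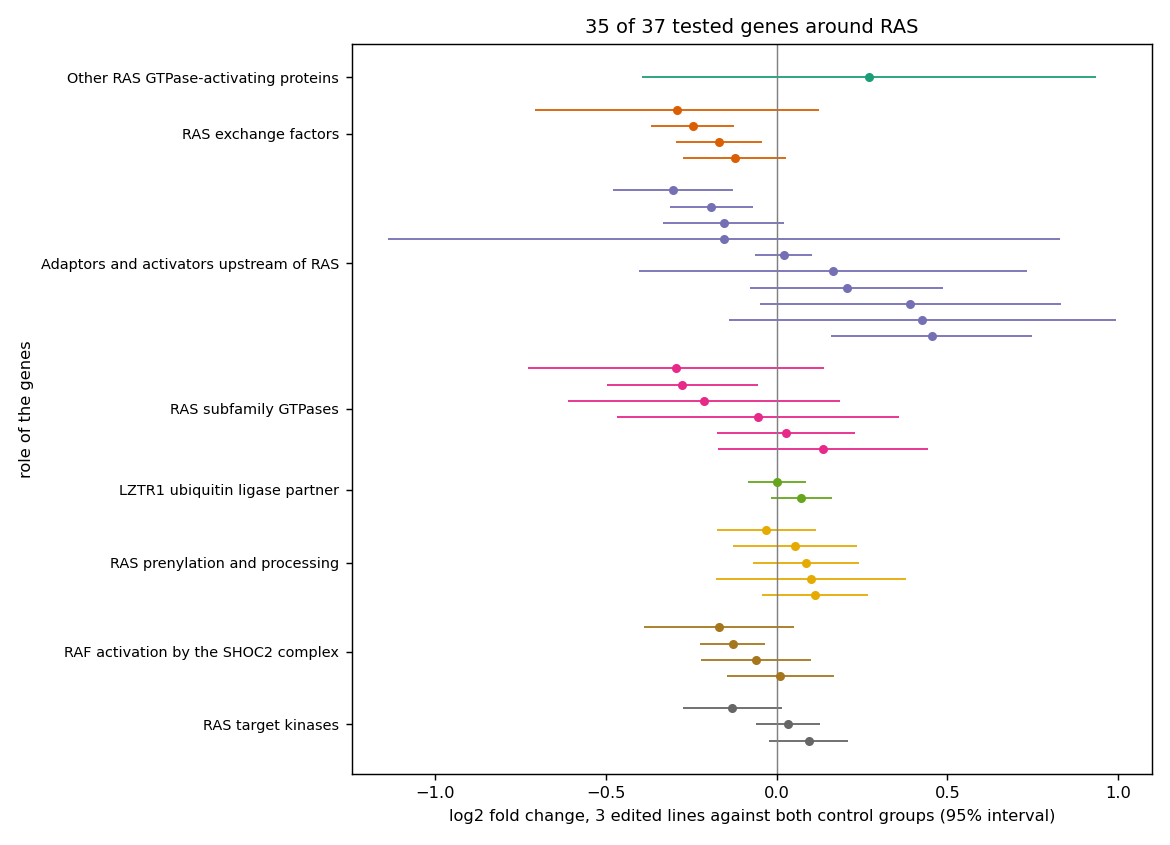
Log2 fold change (x axis) of 35 of the 37 tested genes around RAS (y axis, 1 line per gene, grouped and coloured by role) in the 3 mutant lines against both control groups, with 95% intervals, all 15 libraries. The values run from -0.30 to 0.45 with a median of -0.03 over the 37, and none passes the edgeR threshold.

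Likeness to NF1 was measured as the root-mean-square difference of centred log2 CPM over the 15 libraries, among 11633 genes with a mean log2 CPM of at least 1. NF1 itself varied by 1.025 on that scale. Among the 5 nearest genes were COL1A1 (0.594), SORT1 (0.714), ATXN1 (0.717) and MEX3B (0.719). COL1A1, a collagen chain that is also on the mesenchymal marker list, had mean levels of 10.4 and 15.3 CPM in parental and EV cells and of 5.06, 4.65 and 4.45 CPM in the mutant lines. Nearest to the mirror image of NF1 were RNF175 (0.667), GDA (0.671), SULT1B1 (0.721), STAC (0.741) and FHIT (0.752). GDA, guanine deaminase, had 21.7 and 11.7 CPM in parental and EV cells against 44.4, 38.3 and 62.2 CPM in the mutant lines.

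None of the other 8 brakes was among the 5 genes nearest to NF1 or the 5 nearest to its mirror image. RASA1 ranked 494 (0.936) and DAB2IP 624 (0.944) of 11633 for likeness to NF1. RASA3 had the best rank of the 8 for the mirror image, 2026 (0.993). A gene that did not vary would score 1.025 on both measures, so these values are only a little nearer. The nearest genes depended on the libraries used: without guide 2 replicate 2 only 1 of the 5 like genes and 2 of the 5 mirror genes stayed among the nearest. These are descriptions with no test, over libraries that share genotype.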

How the data were processed

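The authors deposited whole-number read counts per gene and, in a second table, CPM. The deposited CPM equal counts divided by the library total to within 4.91e-11, so levels printed here carry no composition factor. Per the labels' protocols RNA was column-purified and turned into libraries with the KAPA mRNA HyperPrep kit. Per the submitters' processing notes, Trim Galore 0.6.0, STAR 2.7.8a and GRCh38 were used; the counting program, annotation and strand use are not given in the sources used here.

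Groups came from the labels. Counts were tested with edgeR 4.0.16 (R 4.3.3): filterByExpr by genotype, TMM scaling, and 1 quasi-likelihood group-means fit over 15 libraries with 10 residual degrees of freedom. Tests were two-sided, with Benjamini-Hochberg adjustment over all 17457 tested genes and a call at an adjusted p under 0.05. The pooled comparison set the mean of the 3 mutant lines against the mean of both controls, so comparisons share libraries. The procedure was tested on simulated data. Alternatives were DESeq2 1.42.0, limma 3.58.1 voom with sample quality weights, a replicate block, RLE in place of TMM, unfiltered counts, a fit of the compared groups alone, and leaving out each library. Positions are from GENCODE release 29, promoter sequences from RefSeq.

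The members, lists and tests were chosen with earlier results of these data known. Genes named are the 9 members, genes of the RAS list called in the pooled comparison or in at least 2 of the 6 comparisons of a mutant line with a control, and the 5 genes most like NF1 and the 5 nearest its mirror image; some items are not reported here. A count of 3 was taken as the detection floor (0.038 to 0.065 CPM by library), which covers counting error only.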

Additional observations from a re-analysis of the deposited data

Results flagged for a closer look

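The level of NF1 RNA differed between mutant lines. Each guide setting is a single mutant line, so guide and line cannot be told apart. The fall against EV was smaller in guide 1 than in guide 2 cells, a difference of 0.69 (edgeR adjusted p = 0.0121), and larger in cells with both guides than in guide 1 cells, a difference of -0.76 (adjusted p = 0.0041). Mean levels were 47.4 ± 3.87, 29.4 ± 2.27 and 28.1 ± 1.81 CPM in guide 1, guide 2 and both-guide cells (SD, n = 3 each). The call of guide 1 against guide 2 was lost in 4 of 21 alternatives.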

How the results depend on the processing

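NF1 kept its direction in all 230 alternative values over 11 comparisons and its side of the threshold in 225. Guide 1 against guide 2 lost its call with only the compared groups (0.69, adjusted p = 0.712), and over removed libraries it ranged from 0.64 to 0.75. Parental against EV gained a call with voom (0.31, adjusted p = 0.000532). Counts of the 8 other brakes called moved more. With voom they were 7, 4 and 5 in guide 1, guide 2 and both guides against EV, 5, 2 and 1 against parental cells, 7 in the pooled comparison, 5 in parental against EV, 3 in both guides against guide 1 and 1 in both guides against guide 2. With DESeq2 they were 1 in guide 2 and in both guides against EV, 1 in the pooled comparison and 2 in parental against EV. With only the compared groups they were 3 in both guides against EV, 2 in parental against EV and 1 in both guides against guide 1. With no filter on low counts they were 1 in guide 1 against EV and 0 in parental against EV. Over removed libraries they ranged from 0 to 5 in guide 1 against EV, 0 to 4 in guide 2 and 0 to 3 in both guides against EV, 0 to 2 in guide 1 against parental cells, 0 to 5 in the pooled comparison and 0 to 4 in parental against EV. The cause was not tested. Calls over all tested genes moved as well. With all libraries kept, the alternatives called up to 7424, 5804 and 4666 genes in guide 1, guide 2 and both guides against EV. The most were 9230, 5682 and 3725 against parental cells, 7328 in the pooled comparison and 6343 in parental against EV. In both guides the most were 8113 against guide 1 and 2650 against guide 2. The counts of the 8 were not tested against those of all genes.

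With the replicate block the NF1 log2 fold changes against EV were -1.40, -2.09 and -2.16 and every NF1 call was kept. The block left 1 of the 8 other brakes called in guide 1 against EV and 0 in parental against EV, and 567 of 1026, 375 of 687, 69 of 168 and 111 of 263 calls over all genes in guide 1, guide 2 and both guides against EV and in the pooled comparison. Libraries of equal replicate number did not vary together more than others. The mean correlation of deviations was -0.05 over 30 pairs, from -0.75 to 0.28, beside 0.028 for unequal numbers. This check runs over all genes, so a smaller shared effect of replicate number could be missed. Over single values of the 8, 1239 alternatives kept their side of the threshold, 61 gained and 35 lost a call, and 1 reversed. A change of sign counted as reversed only where the value passed the threshold in the main fit or the alternative. That was DAB2IP in guide 2 against parental cells, -0.85 with voom (limma voom adjusted p = 0.00143), against 0.08. Changes of sign with no call in either fit are among the 1239. For example, LZTR1 in guide 1 against EV ran from -0.09 to 0.1 over removed libraries. Calls over all genes ranged from 111 to 7328 in the pooled comparison (263 in the main one), and from 59 to 3213 over removed libraries; against EV they ranged from 567 to 7424, 13 to 5804 and 69 to 4666, and against parental cells from 9 to 9230, 1 to 5682 and 22 to 3725. Over removed libraries they ranged from 215 to 3236, 170 to 2581 and 21 to 1196 against EV, from 6 to 2591, 2 to 1064 and 4 to 467 against parental cells, and from 145 to 2484 in parental against EV. Calls in the list of genes around RAS ranged from 0 to 23 in the pooled comparison.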
